A study of Mus musculus with 8 samples.

Results

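The lysyl oxidase family consists in the mouse of 5 genes, Lox, Loxl1, Loxl2, Loxl3 and Loxl4, which were picked by name from a count table of 27179 genes. All 5 passed the filter on low counts, which left 15583 genes for testing. RNA was profiled by bulk RNA-seq in 8 libraries of cells sorted from mouse lungs. The mice were C57BL/6 (female C57BL/6J in the methods of the study) with an Eml4-Alk rearrangement induced in the lung, a model of non-small cell lung cancer. Tumors were induced by an adenovirus that delivers Cas9 and guide RNAs to the lung. Both populations shared this model, an age of 18 to 22 weeks and a time of 11 to 12 weeks after tumor induction. Both also shared an intravenous dose of 4.5 nmol of QZ1-(PEG2K), a quenched probe that fluoresces and tags nearby cells once a protease cuts its linker, given 2 hours before the lungs were taken. QZ1-hi (4 libraries, labeled QZ+) held the cells with high probe signal and QZ1-lo (4 libraries, labeled QZ-) those with low signal, with at least 100000 cells collected for each. The sort kept live cells negative for CD45 and CD11b, so tumor cells and the stroma of tumor and surrounding lung could both be present, and no library came from a healthy lung. The labels call the libraries biological replicates but do not say which of them came from one mouse.

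Lysyl oxidases are secreted copper-dependent enzymes that oxidize lysine side chains of collagens and elastin to reactive aldehydes, which then condense into the covalent crosslinks that give fibers their strength. Lox and Loxl1 are made as proenzymes that proteases of the procollagen-processing kind cut outside the cell, whereas Loxl2, Loxl3 and Loxl4 carry scavenger receptor domains in front of the catalytic part. In lung, fibroblasts, smooth muscle cells and other mesenchymal cells are known sources of these enzymes, and crosslinking is known for stiffening tumor stroma.

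The 5 proteins share a short copper-binding stretch with 4 histidines, and it is shown here because it is the part of the catalytic domain by which the family is recognized. Each sequence is 63 bases of the mature transcript, 5′ to 3′, with 15 bases on either side of the stretch, and capitals mark the 4 histidine codons. They were read from GENCODE M21 transcripts on GRCm38, the assembly also called mm10. In every member an exon boundary falls after base 38 of this window. The Loxl1 window lies on the minus strand at chr9:58294359-58294396 (exon 3 of 7) and chr9:58293705-58293729 (exon 4), that of Loxl2 on the plus strand at chr14:69682301-69682338 (exon 10 of 14) and chr14:69689028-69689052 (exon 11). The Loxl3 window lies on the plus strand at chr6:83049980-83050017 (exon 10 of 14) and chr6:83050116-83050140 (exon 11), and that of Loxl4 on the minus strand at chr19:42599877-42599914 (exon 11 of 15) and chr19:42598792-42598816 (exon 12).
Loxl1: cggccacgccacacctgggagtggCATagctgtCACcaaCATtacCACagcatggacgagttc
Loxl2: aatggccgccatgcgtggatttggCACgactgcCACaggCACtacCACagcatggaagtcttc
Loxl3: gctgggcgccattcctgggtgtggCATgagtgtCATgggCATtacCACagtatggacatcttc
Loxl4: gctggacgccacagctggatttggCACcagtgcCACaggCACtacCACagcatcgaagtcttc

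From this stretch to the end of the protein, Lox and Loxl1 were identical at 76.5% of aligned residues and Loxl2 and Loxl3 at 70.3%. Between Lox or Loxl1 on one side and Loxl2, Loxl3 or Loxl4 on the other, identity ranged from 44.9% to 50.7%. The encoded proteins have 411 residues in Lox, 607 in Loxl1, 776 in Loxl2, 754 in Loxl3 and 758 in Loxl4. At the level of RNA, no stretch of 50 bases was shared between any of the 5 genes, so a read of that length from one member does not match another perfectly. The transcripts of Lox, Loxl1, Loxl3 and Loxl4 shared no such stretch with any other annotated gene. In Loxl2, 45.0% of the stretches occurred elsewhere, 42.9% in Gm21451, which thus shares a part of the Loxl2 sequence exactly. The division of reads between Loxl2 and Gm21451 is therefore uncertain.

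The libraries held between 18380918 and 26847938 counts, and 3 counts, the floor used here, correspond to between 0.0894 and 0.179 CPM (counts scaled to a common library size), a limit that covers counting error only. CPM values are scaled by edgeR's TMM factors (0.660 to 1.35). Mitochondrial ribosomal RNA took 39.5% to 58.4% of counts in QZ1-hi and 30.2% to 47.3% in QZ1-lo. Its part in the results was not tested. With mitochondrial and ribosomal RNA genes removed, 5 members were called. This removal leaves the counts of all other genes unchanged, so it does not test that part. Lung identity of the material was visible in both populations, with the surfactant gene Sftpc at a mean of 4064 CPM in QZ1-hi and 2371 CPM in QZ1-lo. Ptprc, which encodes the gated-out antigen CD45, was at 131 CPM in QZ1-hi and 125 CPM in QZ1-lo, so its transcript was detected in both populations. Other epithelial genes went mostly the other way from Sftpc: of 8 alveolar type 2 markers, Sftpc included, 1 was called higher and 4 lower (median log2 fold change -0.58), and of 5 alveolar type 1 markers 1 was higher and 4 lower. Cdh1 and Epcam are in both alveolar lists and count among the lower genes of each. None of the 8 leukocyte genes listed was called different.

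All 5 lysyl oxidase genes were higher in the QZ1-hi population, by 3.36-fold to 12.6-fold, at an adjusted p under 0.05 (edgeR quasi-likelihood test, Benjamini-Hochberg adjustment over all genes tested). Log2 changes below are log2 fold changes of QZ1-hi relative to QZ1-lo from this fit. Over all 15583 genes, 9.88% were called higher and 8.21% lower. For each of the 5, all QZ1-hi libraries exceeded all QZ1-lo libraries, which held for 11.9% of all genes tested. The two-sided exact permutation p was 0.0286 for each member, the smallest that 4 against 4 libraries allow. Populations that do not overlap always give this value, so the test adds nothing to that separation. Both this test and the edgeR fit treat all libraries as independent. The labels do not say whether a QZ1-hi and a QZ1-lo library came from one mouse, so this assumption was not tested. In these bulk libraries, more cells of a type that makes an enzyme and more RNA per cell cannot be told apart.

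Lox (Entrez Gene 16948, chr18:52516067-52529867, minus strand, GRCm38), the founding member and the enzyme of both collagen and elastin crosslinks, was at 14.4, 22.6, 11.9 and 15.6 CPM in QZ1-hi replicates 1 to 4. In QZ1-lo replicates 1 to 4 it was at 2.09, 2.89, 1.63 and 0.450 CPM. The lowest QZ1-hi library thus lay well above the highest QZ1-lo library, and QZ1-lo replicate 4 stood at the bottom with only 11 counts. The means were 16.1 ± 4.60 CPM (SD, n = 4) and 1.76 ± 1.02 CPM (SD, n = 4). The log2 change was 3.18 (SE 0.44, adjusted p = 0.000707, edgeR), or 9.09-fold.

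Loxl1 (Entrez Gene 16949, chr9:58287738-58313186, minus strand), the member best known for the upkeep of elastic fibers, was the most abundant and the most changed of the family. It was at 38.9, 66.1, 71.8 and 41.1 CPM in QZ1-hi replicates 1 to 4 and at 2.53, 8.38, 5.21 and 1.15 CPM in QZ1-lo replicates 1 to 4. QZ1-hi replicates 2 and 3 were the high libraries, and the populations did not overlap. The means were 54.5 ± 16.9 CPM (SD, n = 4) and 4.32 ± 3.19 CPM (SD, n = 4). The log2 change was 3.66 (SE 0.49, adjusted p = 0.000629, edgeR), or 12.6-fold, which ranked 117 among all genes tested.

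Loxl2 (Entrez Gene 94352, chr14:69609068-69695834, plus strand), which is known to crosslink collagen IV of basement membranes besides fibrillar collagen, was at 27.1, 28.5, 43.5 and 24.3 CPM in QZ1-hi replicates 1 to 4. The QZ1-lo replicates 1 to 4 had 2.06, 6.10, 5.14 and 1.35 CPM. QZ1-hi replicate 3 was the highest library, and the populations did not overlap. The log2 change was 3.08 (SE 0.43, adjusted p = 0.000723, edgeR), from 3.66 ± 2.31 CPM (SD, n = 4) to 30.9 ± 8.60 CPM (SD, n = 4). Gm21451, whose reads may in part belong to Loxl2 and which was picked for its values, was also higher, at 10.5 CPM in QZ1-hi and 1.60 CPM in QZ1-lo, with a log2 change of 2.72 (SE 0.34). When its counts were added to those of Loxl2, an alternative chosen after seeing the data, the log2 change was 2.98 (SE 0.37, adjusted p = 0.000479, edgeR). The exons of Loxl2 also overlap 301 bases of Gm27177 on the other strand, and the sources used here do not give the strand setting of the counting.

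Loxl3 (Entrez Gene 16950, chr6:83034173-83052562, plus strand), whose loss is known to disturb palate and spine development, was at 11.2, 10.9, 8.33 and 6.97 CPM in QZ1-hi replicates 1 to 4. In QZ1-lo replicates 1 to 4 it was at 1.58, 3.42, 1.23 and 0.532 CPM. Here QZ1-hi replicates 1 and 2 were the high libraries, in contrast to Loxl1 and Loxl2, where replicate 3 was the highest. The log2 change was 2.47 (SE 0.46, adjusted p = 0.00365, edgeR), from 1.69 ± 1.23 CPM (SD, n = 4) to 9.35 ± 2.04 CPM (SD, n = 4). Loxl3 shares 535 exonic bases with Htra2 on the other strand, a mitochondrial protease gene that was not called (log2 fold change 0.57, SE 0.33, adjusted p = 0.288, edgeR) and was picked with its values in view.

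Loxl4 (Entrez Gene 67573, chr19:42593982-42612813, minus strand) was the least abundant member and had the smallest fold change of the family. It was at 4.11, 4.25, 5.15 and 3.75 CPM in QZ1-hi replicates 1 to 4 and at 1.55, 1.83, 1.19 and 0.532 CPM in QZ1-lo replicates 1 to 4, on 13 to 97 counts per library. The QZ1-hi libraries lay close together, with means of 4.31 ± 0.592 and 1.28 ± 0.561 CPM in QZ1-hi and QZ1-lo (SD, n = 4 each). The log2 change was 1.75 (SE 0.41, adjusted p = 0.0124, edgeR), or 3.36-fold. With scaling by library size only, it was 1.31 and missed the threshold (adjusted p = 0.0658, edgeR).

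**Figure D1:**
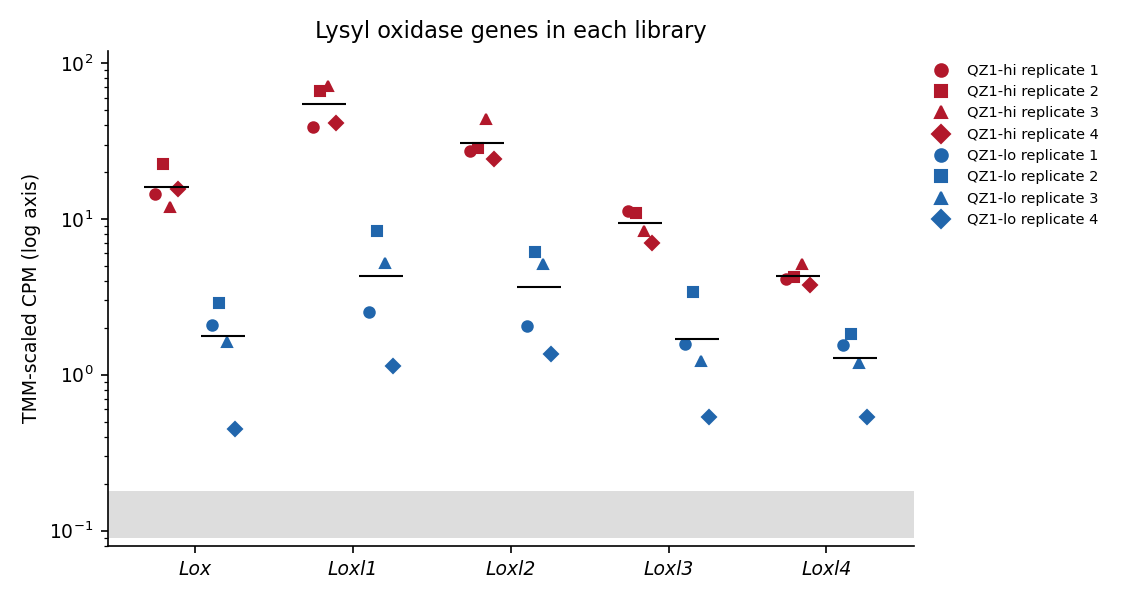
TMM-scaled CPM of the 5 lysyl oxidase genes on a log axis, with 1 point per library, red for QZ1-hi and blue for QZ1-lo, marker shapes for replicates and black bars for group means; the gray band is the level of 3 counts. Every red point of a gene lies above all of its blue points, and QZ1-lo replicate 4 is the lowest point of all 5 genes.

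QZ1-lo replicate 4 was the lowest library for each of the 5 members and QZ1-lo replicate 2 the highest of the QZ1-lo libraries. The same library, QZ1-lo replicate 4, was also lowest in the summed CPM of the fibrillar collagens, at 45.3 CPM, whereas QZ1-lo replicates 1 to 3 had 131 to 339 CPM. Leaving out QZ1-lo replicate 4 lowered the log2 fold changes to 2.87 in Lox, 3.35 in Loxl1, 2.81 in Loxl2, 2.18 in Loxl3 and 1.50 in Loxl4, and leaving out QZ1-lo replicate 2 raised them to 3.51, 4.19, 3.43, 3.05 and 1.97. All 5 genes were called higher with any 1 of the 8 libraries left out. The largest adjusted p was 0.0418 (edgeR), for Loxl4 without QZ1-hi replicate 3.

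**Figure D2:**
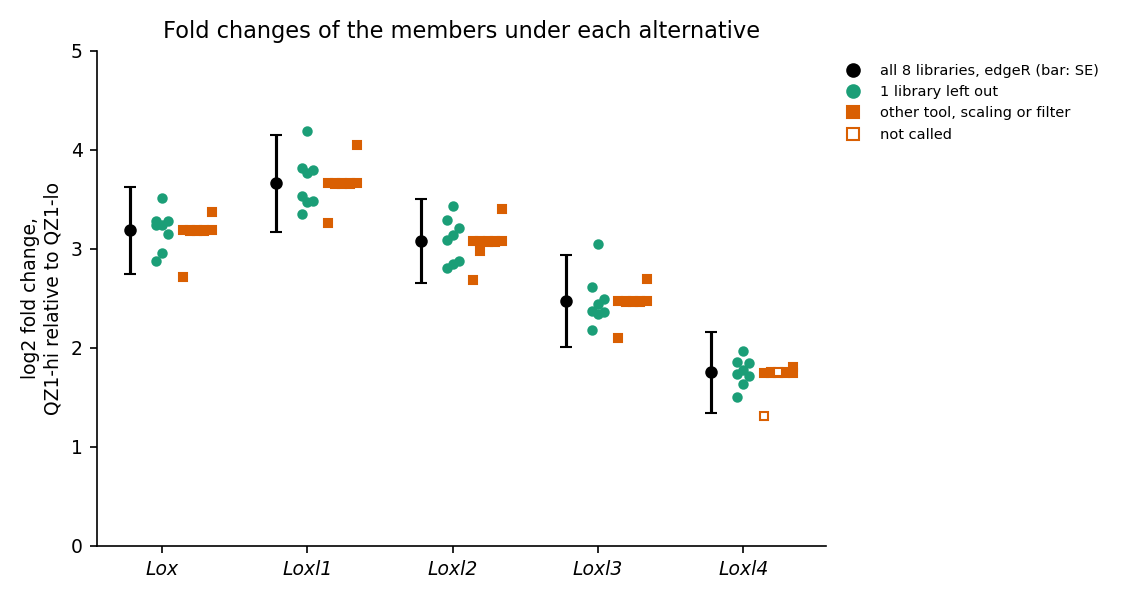
Log2 fold change of each member, QZ1-hi relative to QZ1-lo, with all 8 libraries (black, bars are SE), with 1 library left out (green) and with another tool, scaling, filter or threshold (orange; open where the gene was not called). All values are above 0, and the open squares occur in Loxl4 alone.

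To compare levels between genes, CPM was divided by exonic length in kb. Within each of the 4 QZ1-hi libraries the order of this level was Loxl1, Loxl2, Lox, Loxl3 and Loxl4. The means were 16.5 ± 5.13 CPM per kb for Loxl1, 5.71 ± 1.59 for Loxl2, 3.37 ± 0.962 for Lox, 2.28 ± 0.499 for Loxl3 and 1.15 ± 0.158 for Loxl4 (SD, n = 4 each). Lox and Loxl3 were neighbors in this order whose ranges overlapped, at 2.49 to 4.73 and 1.70 to 2.73 CPM per kb, and so were Lox and Loxl2, since Loxl2 went down to 4.50. In QZ1-lo, Loxl1 was again first in all 4 libraries, with a mean of 1.31 ± 0.968 CPM per kb, but the order of the others changed from library to library. Their QZ1-lo means, from 0.341 CPM per kb in Loxl4 to 0.678 in Loxl2, differed by less than the spread between replicates of Loxl2 (SD 0.428).

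The make-up of the family differed between the populations more at its ends than in the middle. Of the summed CPM per kb of the 5 genes, Loxl1 took 49.9% to 60.9% in QZ1-hi libraries and 32.2% to 45.4% in QZ1-lo libraries. Loxl4 took 3.35% to 4.65% in QZ1-hi and 8.74% to 17.4% in QZ1-lo. For both genes the populations did not overlap, whereas they overlapped for Lox (means 12.0% and 12.2%), Loxl2 (19.7% and 22.3%) and Loxl3 (8.13% and 13.3%). The summed level went from 0.964 to 5.60 CPM per kb in QZ1-lo up to 22.9 to 35.7 CPM per kb in QZ1-hi. These shares are descriptions without a test, and a share must fall where another rises. The uncertain division of reads between Loxl2 and Gm21451 applies to the levels of Loxl2 per kb and to these shares.

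**Figure D3:**
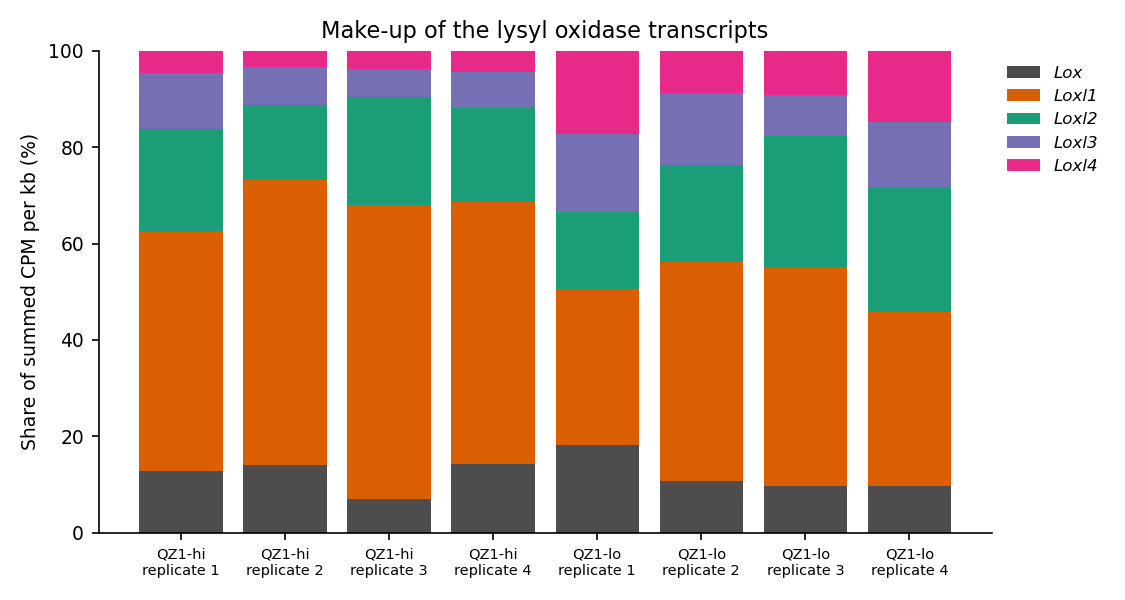
Share of each lysyl oxidase gene in the summed CPM per kb of the family, in percent, with 1 stacked bar per library. Loxl1 fills the largest segment of all bars, and the Loxl4 segment is at most 4.65% in QZ1-hi bars and at least 8.74% in QZ1-lo bars.

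Ratios of raw counts within a library do not depend on scaling between libraries. Among the 10 pairs of members, the populations did not overlap for 4, and in 3 of these Loxl4 was the denominator. The log2 ratio to Loxl4 was higher in QZ1-hi by 2.08 for Loxl1, by 1.55 for Lox and by 1.41 for Loxl2, and the ratio of Loxl1 to Loxl2 was higher by 0.67. Lox and Loxl2 differed least in this respect, with a shift of 0.13 between them and overlapping populations. For Loxl1 to Loxl2 the separation was narrow, with a lowest log2 ratio of 0.52 in QZ1-hi and a highest of 0.46 in QZ1-lo. The uncertain division of reads between Loxl2 and Gm21451 applies to every ratio with Loxl2.

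The enzymes were next set against their substrates, with pairings that were chosen after the values were seen. Per 1000 counts of Col1a1, the main chain of collagen I, Loxl1 gave 84.7 to 112 counts in QZ1-hi libraries and 56.9 to 107 in QZ1-lo libraries. Loxl2 gave 42.6 to 66.6 counts in QZ1-hi and 52.8 to 126 in QZ1-lo, so the populations overlapped for both. They also overlapped for Lox and Loxl3. Loxl4 alone stood apart, with 6.36 to 10.3 counts per 1000 Col1a1 counts in QZ1-hi and 13.0 to 49.6 in QZ1-lo. Relative to Eln, which encodes elastin, the populations overlapped for all 5 members.

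Against Col4a1, a chain of the basement membrane collagen IV, the picture was different. Loxl1 gave 26.5 to 94.8 counts per 1000 Col4a1 counts in QZ1-hi and 2.33 to 18.7 in QZ1-lo. The populations did not overlap for Lox, Loxl1 and Loxl2, whose log2 ratios to Col4a1 were higher in QZ1-hi by 2.58, 3.12 and 2.45. They overlapped for Loxl3 and Loxl4.

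**Figure D4:**
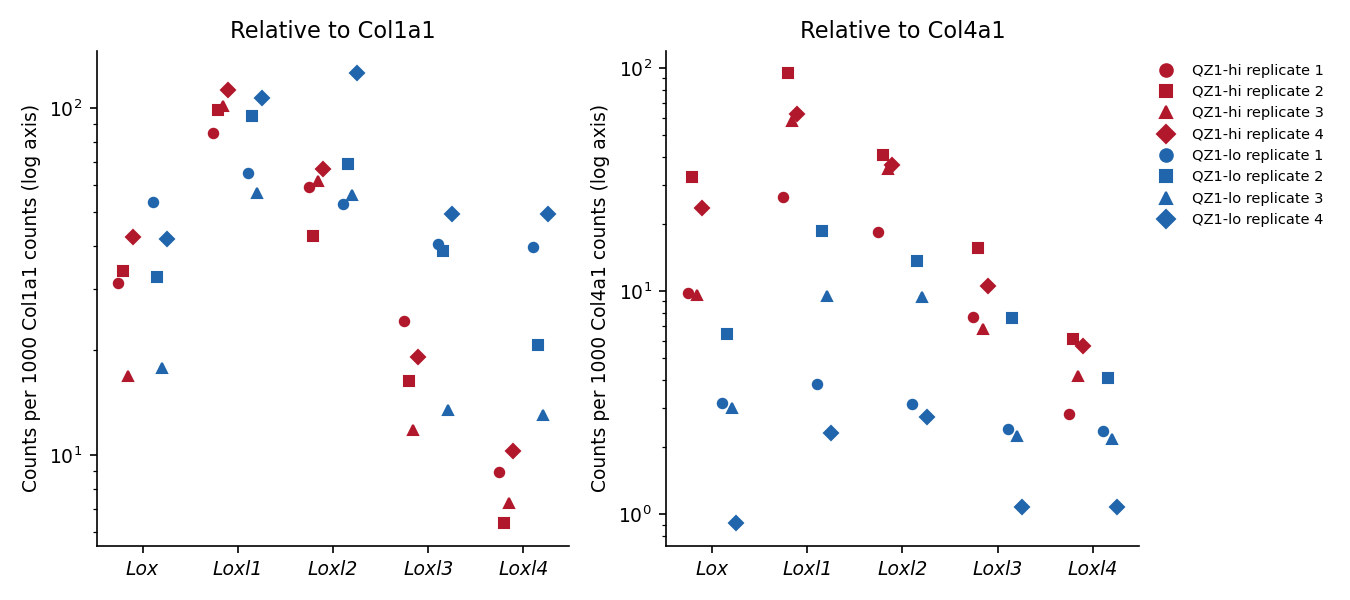
Counts of each lysyl oxidase gene per 1000 counts of Col1a1 (left) and of Col4a1 (right) in each library, on log axes, red for QZ1-hi and blue for QZ1-lo with marker shapes for replicates. Relative to Col1a1, red and blue points mix for 4 genes and separate for Loxl4; relative to Col4a1, they separate for Lox, Loxl1 and Loxl2.

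The other genes of the crosslinking pathway were taken from 9 lists of 79 genes, of which 76 passed the filter. Of these, 37 were called higher, 2 lower and 37 were not called, with a median log2 fold change of 0.92 against 0.02 for all genes tested. Over all genes tested, 9.88% were called higher and 8.21% lower, and these shares apply beside the count of each list below. The lists include matrix genes that earlier results of these data had already shown, so their count is not independent evidence of a direction.

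Among the proteases that mature Lox, Loxl1 or their procollagen substrates, 3 of 5 tested were higher. Tll1, a tolloid-like protease that can cut the Lox propeptide, had a log2 change of 2.92 (SE 0.55, adjusted p = 0.00359, edgeR). Adamts2 and Adamts3, which remove the amino-terminal propeptide of procollagens, had log2 changes of 3.53 and 3.07. Bmp1, the main activating protease of Lox, was at 59.6 ± 12.8 CPM in QZ1-hi and 48.1 ± 7.94 CPM in QZ1-lo (SD, n = 4 each), with a log2 change of 0.31 (SE 0.18, adjusted p = 0.293, edgeR). Bmp1 passed the threshold without QZ1-hi replicate 4 (adjusted p = 0.0475, edgeR), and its value was -0.13 with scaling by library size only.

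Of the 6 cofactors of this maturation, 4 were higher. Pcolce and Pcolce2, enhancers of procollagen cleavage, had log2 changes of 1.51 (SE 0.24) and 3.74 (SE 0.79). Postn, which encodes periostin, a scaffold that brings Bmp1 to matrix, and Fn1, which encodes fibronectin, had log2 changes of 3.26 (SE 0.48) and 1.06 (SE 0.25). With scaling by library size only, Fn1 was not called (adjusted p = 0.172, edgeR). Thbs1, which encodes thrombospondin 1, was the exception in sign among the 6, with a log2 change of -0.44 (SE 0.19, adjusted p = 0.162, edgeR), and was called lower with library size only (adjusted p = 0.0379, edgeR).

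The substrates split by kind of matrix. Of 9 fibrillar collagen genes tested, 6 were higher, among them Col1a1, at 550.0 ± 164 CPM in QZ1-hi and 57.4 ± 39.4 CPM in QZ1-lo (SD, n = 4 each), and Col5a1, Col5a2 and Col5a3, with log2 changes of 3.16, 3.21 and 2.22. Col11a2 and Col27a1 had log2 changes of -0.43 (SE 0.32) and -0.24 (SE 0.33) and were not called. Of 13 elastic fiber genes, 11 were higher. Eln rose to 91.3 ± 26.1 CPM in QZ1-hi from 11.6 ± 7.64 CPM in QZ1-lo (SD, n = 4 each), a log2 change of 2.98 (SE 0.43, adjusted p = 0.000853, edgeR). Fbln2, Mfap4 and Ltbp4, which encode proteins of the microfibrils and of elastic fiber assembly, had log2 changes of 3.77, 3.59 and 3.51.

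Collagen IV, the substrate assigned to Loxl2, went both ways, with 2 of 6 genes called higher and 2 lower. Col4a1 and Col4a2, which form the common vascular network, had log2 changes of 0.92 (SE 0.25, adjusted p = 0.0262, edgeR) and 0.76 (SE 0.22, adjusted p = 0.0320, edgeR). Col4a3 and Col4a4, chains of the network found under alveolar epithelium, had log2 changes of -0.76 (SE 0.23, adjusted p = 0.0415, edgeR) and -0.90 (SE 0.21, adjusted p = 0.0120, edgeR). Col4a5, a partner of the last pair, was at -0.55 (SE 0.19, adjusted p = 0.0703, edgeR). Single libraries decided most of these calls. Col4a1 and Col4a2 were not called without QZ1-hi replicate 1 or 3 or without QZ1-lo replicate 2, 3 or 4 (adjusted p up to 0.0849 and 0.0997, edgeR). Col4a3 was not called without QZ1-hi replicate 2, 3 or 4 or QZ1-lo replicate 1, 2 or 4 (adjusted p up to 0.122, edgeR), and Col4a5 was called without QZ1-lo replicate 4 (adjusted p = 0.0368, edgeR). Col4a5 was also called lower by DESeq2 and with scaling by library size only. With scaling by library size only, Col4a1 and Col4a2 also missed the threshold (adjusted p = 0.255 and 0.411, edgeR).

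Genes that modify collagen in the endoplasmic reticulum were called higher in 7 of 17 cases. Plod2, the lysyl hydroxylase of collagen telopeptides that decides which crosslinks lysyl oxidases can form, had a log2 change of 2.44 (SE 0.35, adjusted p = 0.000857, edgeR). Serpinh1, the collagen chaperone, Fkbp10, which acts with Plod2, and Crtap, of the prolyl 3-hydroxylase complex, had log2 changes of 1.27, 2.23 and 1.10. Serpinh1 and Crtap were not called with scaling by library size only (adjusted p = 0.0543 and 0.136, edgeR). P4ha2 and P3h2, both prolyl hydroxylase subunits, had log2 changes of -0.22 (SE 0.17) and -0.23 (SE 0.36) and were not called.

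Copper reaches lysyl oxidases through importers, the chaperone Atox1 and the Golgi pump Atp7a, and in this list 1 of 7 genes was called. With 9.88% of all genes tested called higher and a list median of 0.23 (log2), that count is no result about the list. Atp7a was at 52.2 ± 9.66 CPM in QZ1-hi and 39.7 ± 5.34 CPM in QZ1-lo (SD, n = 4 each), a log2 change of 0.40 (SE 0.16, adjusted p = 0.114, edgeR). Atox1 had 0.32 (SE 0.16, adjusted p = 0.220, edgeR) and the importer Slc31a1 had -0.09 (SE 0.19, adjusted p = 0.815, edgeR), a sign that turned in 3 alternatives. With scaling by library size only, Atp7a was at -0.09 and Atox1 at -0.12. Slc31a2, an importer of vesicles, was the gene called, with a log2 change of 0.45 (SE 0.14, adjusted p = 0.0467, edgeR), but it was not called with any 1 library left out (adjusted p from 0.0523 to 0.121, edgeR) and its value was -0.02 with scaling by library size only. Atp7b, the related pump best known from liver, had -0.56 (SE 0.18, adjusted p = 0.0521, edgeR) and was called lower without QZ1-hi replicate 3 (adjusted p = 0.0384, edgeR) and under 4 of 9 alternatives that kept all libraries, DESeq2 and limma voom among them.

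Of 5 other amine oxidases, only Maoa, which encodes a mitochondrial flavin enzyme, was called in this edgeR fit, with a log2 change of 1.19 (SE 0.21, adjusted p = 0.00263, edgeR), and it was not called with scaling by library size only (adjusted p = 0.0847, edgeR). With 9.88% of all genes tested called higher and a list median of 0.66 (log2), this count is no result about the list. Maob had 0.25 (SE 0.24, adjusted p = 0.553, edgeR), or -0.14 with library size only. Aoc3, a copper amine oxidase of vessel walls, had 2.06 (SE 1.03, adjusted p = 0.214, edgeR) and was called without QZ1-lo replicate 2 (adjusted p = 0.0109, edgeR) and with limma voom. Aoc1, the diamine oxidase, had -1.29 (SE 0.42, adjusted p = 0.0538, edgeR) and was called lower without QZ1-hi replicate 2 (adjusted p = 0.00381, edgeR) and under 4 of 9 alternatives that kept all libraries, DESeq2 among them.

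Among 8 genes of pathways known to induce lysyl oxidases, 2 were higher. With 9.88% of all genes tested called higher and a list median of 0.20 (log2), that count is no result about the list. Epas1, which encodes the hypoxia factor HIF-2α and is abundant in endothelium, rose to 1065 ± 399 CPM in QZ1-hi from 264 ± 77.4 CPM in QZ1-lo (SD, n = 4 each), a log2 change of 2.01 (SE 0.27, adjusted p = 0.000612, edgeR). Tgfbr2, a receptor of TGF-β, had a log2 change of 0.43 (SE 0.12, adjusted p = 0.0266, edgeR), which was -0.05 with scaling by library size only. It was not called without QZ1-hi replicate 2 or 3 or QZ1-lo replicate 1, 2 or 3 (adjusted p up to 0.103, edgeR). Tgfb1 and Tgfb3, both ligands, had 0.32 (SE 0.13, adjusted p = 0.113, edgeR) and 0.29 (SE 0.23, adjusted p = 0.466, edgeR), or -0.16 and -0.21 with library size only. Tgfbr1 and Ccn2, a receptor and a target of the same pathway, had -0.07 (SE 0.19) and -0.04 (SE 0.15), and the sign turned without QZ1-hi replicate 1 in Tgfbr1 and without QZ1-hi replicate 4 or QZ1-lo replicate 1 in Ccn2.

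**Figure D5:**
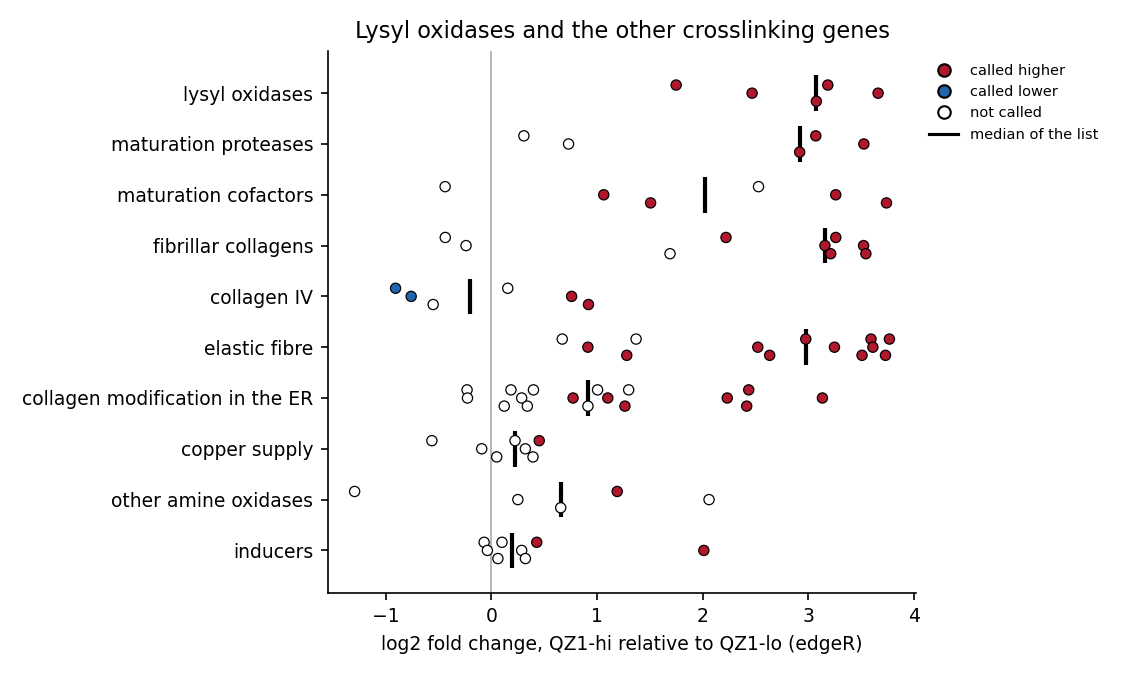
Log2 fold change, QZ1-hi relative to QZ1-lo, of each tested gene of the lysyl oxidase family and of 9 lists of crosslinking genes, with 1 point per gene, filled red where called higher, blue where called lower and white where not called; black bars are list medians. The 5 lysyl oxidases and most fibrillar collagen and elastic fiber genes lie well above 0, and collagen IV holds the 2 blue points.

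Markers of several cell types moved in the same direction as the lysyl oxidases. Beside the counts that follow, the shares over all genes tested were 9.88% higher and 8.21% lower. All 3 adventitial fibroblast markers were higher, with a summed level of 96.0 to 304 CPM in QZ1-hi and 8.35 to 29.7 CPM in QZ1-lo. Of 7 pericyte markers, 4 (Des, Nes, Pdgfrb and Trpc6) were higher (197 to 336 CPM against 26.5 to 70.6 CPM). Acta2, Cspg4 and Higd1b were not called, and Nes gave the largest part of the QZ1-hi sum, at 111 to 238 CPM. Of 4 matrix fibroblast markers, 3 were higher (1541 to 2588 CPM against 546 to 989 CPM). These 3 were Col1a1, Col1a2 and Fn1, already counted above as collagens or cofactors, so they add no separate evidence. The remaining marker, Tcf21, was not called (adjusted p = 0.0907, edgeR). Of 5 myofibroblast markers, 2 (Aspn and Pdgfra) were higher (77.0 to 171 CPM against 27.1 to 38.9 CPM). Pdgfra gave the largest part of the QZ1-hi sum, at 45.3 to 105 CPM. Fgf18, Rgs2 and Wif1 were not called, and Wif1 had a log2 change of -1.82 (SE 0.82, adjusted p = 0.168, edgeR). All 3 mesothelial markers were higher, at 29.7 to 208 CPM against 5.44 to 27.5 CPM. The 208 CPM came from QZ1-hi replicate 2, whereas the other QZ1-hi libraries had 29.7 to 55.7 CPM. Of the mesothelial markers, Msln and Upk3b overlapped between the populations and only Wt1 did not. General capillary endothelium (5 of 5 markers, 899 to 1788 CPM against 212 to 342 CPM) was higher as well. Of the 3 smooth muscle markers, Tagln was higher but overlapped between the populations, Cnn1 was lower and Acta2 was not called. Cnn1, a defining contractile gene, was below the floor of 3 counts in QZ1-hi, at a mean of 0.0145 CPM. In QZ1-lo it was also scarce, at 0.362 to 0.773 CPM on 10 to 19 counts per library. All 5 club cell markers and all 5 ciliated cell markers were lower. Of these, Cdh1 and Epcam are in both lists and also in both alveolar lists, so they mark epithelium in general. The part of these shifts in cell make-up in the levels of the lysyl oxidases was not tested.

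For each member, the 3 genes with the most similar profile were sought by the root mean square (RMS) difference of log2 CPM over the 8 libraries, after subtracting each gene's mean. For Lox these were Podn (RMS 0.19), C1s2 (0.33) and Sulf1 (0.36). For Loxl1 they included Abi3bp (0.26) and Pdgfra (0.27), the last a receptor that marks fibroblasts. For Loxl2 they were Vegfc (0.22), which is in the study's list of venous endothelium markers, Prickle1 (0.23) and Serping1 (0.25). For Loxl3 they were Des (0.21), which encodes the muscle and pericyte filament desmin, Thbs2 (0.24) and Ndn (0.29). For Loxl4 they were Trub1 (0.22), Rbms3 (0.25) and Vcan (0.26). The median RMS difference to all genes was between 1.08 for Loxl4 and 2.14 for Loxl1. The 8 libraries share their 2 populations, so nearness reflects a like difference between QZ1-hi and QZ1-lo together with a like order of the libraries.

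Within the family, Loxl1 and Loxl2 had the most similar profiles (RMS 0.42), followed by Lox and Loxl3 (0.47), and Loxl1 and Loxl4 the least similar (1.17). The members closest in profile were thus not the pairs closest in catalytic sequence, which were Lox with Loxl1 (RMS 0.59) and Loxl2 with Loxl3 (0.60). No member was among the 3 nearest genes of another.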

How the data were processed

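RNA of 4 QZ1-hi and 4 QZ1-lo samples was measured by RNA-seq. The authors deposited raw counts per gene, listed by Entrez Gene ID and not normalized. Per the labels, libraries were made with a stranded total RNA kit and mm10 was the genome build. The study's methods name Rsubread for counting, and DESeq2 is among the submitters' processing tools. The aligner, annotation and strand setting are not given in the sources used here. Symbols were matched for 25275 IDs, and 1904 had none.

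Counts were tested with edgeR 4.0.16 in R 4.3.3, with TMM scaling, filterByExpr (minimum count 10, minimum total 15), the quasi-likelihood test and Benjamini-Hochberg adjustment at 0.05. SE is the magnitude of the log2 fold change over the square root of F. Single means were compared by exact permutation over 70 assignments. CPM per kb used exonic lengths of GENCODE M21 basic, proteins were aligned with Biopython 1.88, and nearest profiles used log2 CPM with a prior count of 2. The procedure was tested on simulated data.

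The members and lists were chosen with earlier results of these data known. Genes named were the 5 members, at most 4 genes of smallest p per list, any list gene whose direction went against the majority of its list's calls, and the 3 nearest profiles of each member, of which 1 is not reported here. Marker genes come from the study's cell type lists, with leukocyte and erythroid genes added. The erythroid list (4 of 5 genes matched, 0 called) and the remaining marker lists were used to describe the sort, and the single marker genes named were picked after their values were seen.

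Alternatives were DESeq2 1.42.0 (Wald test), limma 3.58.1 (voom with quality weights), DESeq2 size factors in edgeR, library size only, robust shrinkage, no filter, a minimum of 10 counts per library, removal of mitochondrial and ribosomal RNA genes, leaving out each library, and a threshold of 0.01. Adding the counts of Gm21451 to Loxl2 was chosen after seeing the data. The reads carried no molecular identifiers, so floors cover counting error only. P-values measure the spread between these samples.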

Additional observations from a re-analysis of the deposited data

Results flagged for a closer look

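No lysyl oxidase gene had a library far from the other 3 of its population by Dixon's test at the 95% level. Among the 50 genes checked in 2 populations each, 6 genes of the crosslinking lists had one, where chance gives about 1 in 20 groups. Fn1 was at 931 CPM in QZ1-lo replicate 1, whereas the rest of QZ1-lo ranged from 457 to 533 CPM. Thbs1 was at 436 CPM in QZ1-lo replicate 4, against 634 to 649 CPM. P4ha2 was at 18.3 CPM in QZ1-hi replicate 4, against 23.3 to 23.6 CPM in the other QZ1-hi libraries. Aoc1 was at 6.62 CPM in QZ1-hi replicate 2, against 1.95 to 2.50 CPM. Aoc3 was at 1.99 CPM in QZ1-lo replicate 2, against 0.0298 to 0.289 CPM. Epas1 was at 1656 CPM in QZ1-hi replicate 3, against 820 to 959 CPM.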

How the results depend on the processing

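Lox, Loxl1, Loxl2 and Loxl3 were called higher in QZ1-hi under all 18 alternatives, with log2 fold changes from 2.71 to 3.51, 3.26 to 4.19, 2.68 to 3.43 and 2.10 to 3.05. Loxl4 was called under 16, with values from 1.31 to 1.97. It was not called with library size only (1.31) or at an adjusted p under 0.01, where its value stayed 1.75. The 18 alternatives include the threshold of 0.01, which used the main fit again. They also include the addition of Gm21451 counts, which among the members changed only the counts of Loxl2. Library size only gave 882 genes higher and 2509 lower, so that 26.0% of calls were higher against 54.6% with TMM, and the median over all genes went from 0.02 to -0.44 (log2). An adjusted p under 0.01 gave 902 and 665 by construction. The 2 crosslinking genes called lower became 5 with DESeq2, 6 with library size only, 0 at an adjusted p under 0.01, and 1 to 2 with a library left out (1 without QZ1-hi replicate 4, QZ1-lo replicate 1 or QZ1-lo replicate 2). The cause was not tested. With a library left out, the 37 called higher ranged from 31 to 38. No paired analysis was possible because the labels carry no replicate numbers and tie no library to a mouse, and the numbers used here are names in accession order. Summed erythroid CPM had the same order of numbers in both populations (131, 447, 376 and 1006 in QZ1-hi; 282, 1587, 961 and 3097 in QZ1-lo), and whether libraries shared mice was not tested. Depth limits Lox, Loxl3 and Loxl4 most, since QZ1-lo replicate 4 held 11 to 13 counts of each, and no library allows cells of different types to be told apart.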
